A study of Mus musculus with 13 samples.

Results

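The canonical, replication-dependent histone genes were described across 13 mouse liver libraries. Members were the protein-coding rows of the deposited count table whose symbol begins with Hist1h, Hist2h, Hist3h or Hist4h, which gave 67 genes of 54532. They comprise 6 genes for the linker histone H1, 18 for H2A, 18 for H2B, 12 for H3 and 13 for H4. By cluster, 54 lie in Hist1 on chromosome 13, 10 in Hist2 on chromosome 3, 2 in Hist3 on chromosome 11 and 1, Hist4h4, on chromosome 6. A further 3 rows with such symbols are pseudogenes and were left out.

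Core histones H2A, H2B, H3 and H4 form the protein spool around which DNA is wound, and H1 binds the linker DNA between spools. Most genes of these clusters are transcribed in S phase, and their messages end in a conserved stem-loop in place of a poly(A) tail. The stem-loop is bound by SLBP, and its cleavage uses the U7 small nuclear RNP with Lsm10 and Lsm11, while NPAT drives transcription of the clusters. Most hepatocytes of an adult liver are not dividing, and some of these genes are known to be expressed in differentiated tissue as polyadenylated RNA.

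All groups were liver samples of wild-type C57 BL6 mice aged 8 weeks, injected intraperitoneally. The titles give a collection time of 6 h for every group, counted from GalN/LPS where it was given. The groups were saline (n = 3), 5 µg/kg lipopolysaccharide combined with 500 mg/kg D-galactosamine (GalN/LPS, n = 3), dmPGE2 at 300 µg/kg followed 1 h later by GalN/LPS (pretreated, n = 4) and dmPGE2 at that dose alone (n = 3). GalN/LPS is a model of acute liver failure, in which galactosamine makes hepatocytes sensitive to tumor necrosis factor, and dmPGE2 is a stable analogue of prostaglandin E2. Separate animals behind the libraries are not stated, so p-values may measure only the spread between these samples. Selection of poly(A) RNA before library preparation is also not stated, and it decides how well messages without a tail are seen.

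Library totals ranged from 14829838 to 20777809 counts, of which the 67 genes together held 51195 over all libraries. Levels are CPM, the deposited counts divided by library totals times TMM factors, with SD, and fold changes are log2 with their standard error. Adjusted p-values are from the quasi-likelihood test of edgeR with Benjamini-Hochberg adjustment over 14280 genes, called at 0.05. TMM factors were 0.683 to 0.830 in pretreated and 1.17 to 1.18 in saline libraries, and using library totals in their place moved the median log2 change of all genes from 0.025 to -0.15 for GalN/LPS against saline, from -0.10 to -0.61 for pretreated against GalN/LPS and from 0.14 to -0.54 for pretreated against saline. Calls below are relative to TMM, and calls of histone members that totals end or turn are named. Calls of genes in the other lists, cell markers among them, are given with TMM only. The livers expressed hepatocyte markers such as Alb and Cps1, and no marker of the 10 was at 0 in any group. In these bulk samples fewer cells of a type and less RNA per cell cannot be told apart.

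The sequence of the stem-loop is shown for the genes on which the results turn. A stem of 6 paired bases around a loop of 4, beginning GG and ending CC, with T at positions 6 and 8 and A at position 11, was searched for on the transcript strand after the stop codon in GENCODE M21 transcripts (GRCm38). It was found in 88 of 22527 coding genes (0.391%), of which 44 are members. In 43 members it lay in the longest coding transcript, 21 to 58 bases past the stop codon (median 31). In the lines below, written 5′ to 3′ with DNA letters, capitals mark the 16 bases of the stem-loop, and the coordinates are those of the capitals.
Hist1h1c, chr13:23739512-23739527, plus strand: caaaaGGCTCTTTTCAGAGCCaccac
Hist3h2a, chr11:58955172-58955187, plus strand: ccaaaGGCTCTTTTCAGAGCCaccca
Hist4h4, chr6:136803998-136804013, minus strand: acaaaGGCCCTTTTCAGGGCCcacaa
Hist1h4c, chr13:23698089-23698104, minus strand: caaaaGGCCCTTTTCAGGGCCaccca
Hist1h4d, chr13:23581950-23581965, plus strand: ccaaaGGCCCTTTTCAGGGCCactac
Hist1h4h, chr13:23531458-23531473, plus strand: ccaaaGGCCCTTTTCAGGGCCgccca
Hist1h4i, chr13:22040966-22040981, minus strand: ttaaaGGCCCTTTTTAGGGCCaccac
Hist2h4, chr3:96262939-96262954, minus strand: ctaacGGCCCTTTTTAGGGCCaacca

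The form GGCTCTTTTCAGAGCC, as in Hist1h1c and Hist3h2a, was the most frequent, in 25 members, and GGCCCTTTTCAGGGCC, as in Hist4h4, was in 7. The 6 H4 genes shown hold one or the other of 2 forms with the GGCCC stem. No match lay after the stop codon of Hist1h2bc, Hist2h2be or Hist1h2bq, 3 H2B genes with enough counts to test, in these annotated transcripts. The annotation lets 25 members run more than 50 bases past the stem-loop, and 12 members have the poly(A) signal AATAAA in the last 50 bases of the transcript.

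**Figure D1:**
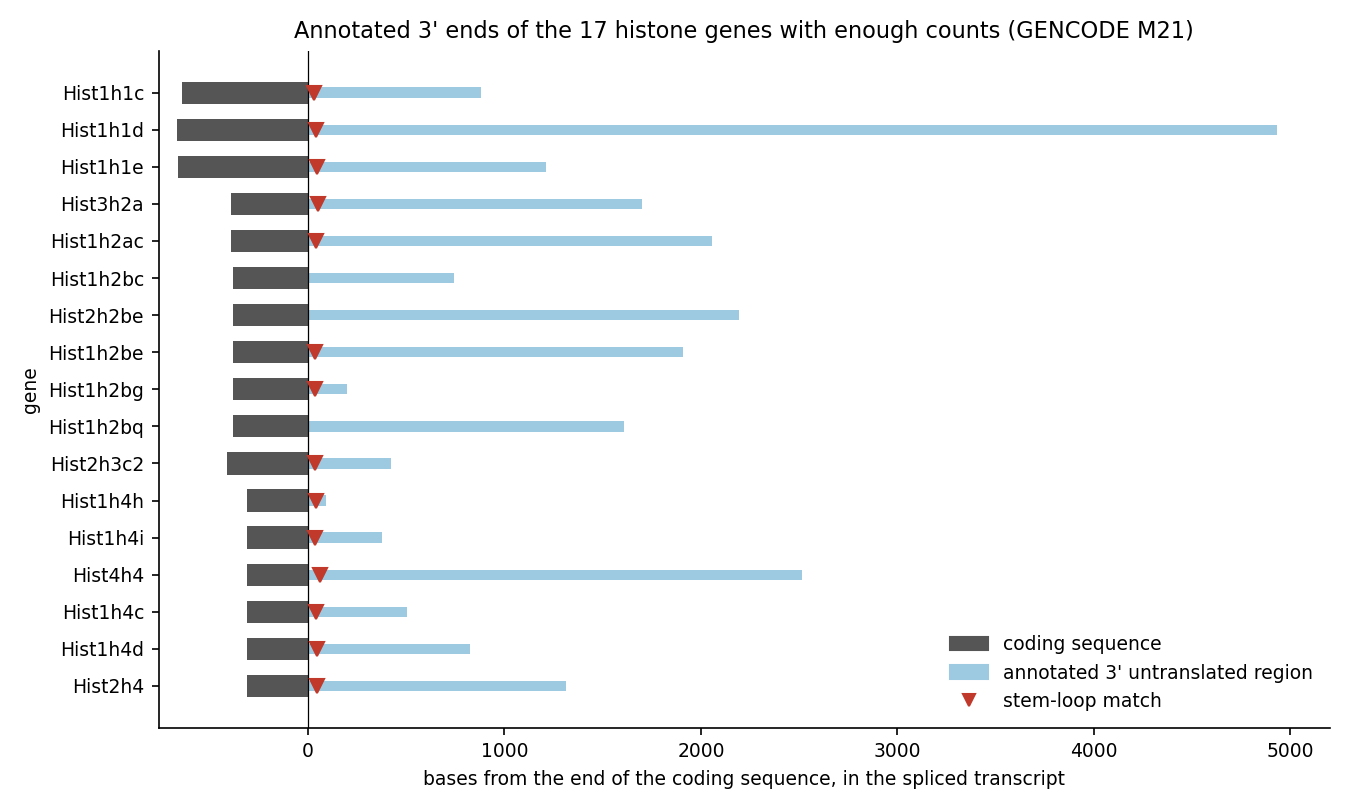
Annotated 3′ ends of the 17 histone genes with enough counts, in bases from the end of the coding sequence along the spliced transcript. Dark bars are the coding sequence, light bars the 3′ untranslated region, and triangles the stem-loop match, which is present in 14 genes; in 13 of them the transcript runs more than 50 bases past it.

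Of the 67 genes, 17 passed the filter on low counts, and 50 had too few. Median annotated transcript length was 1630 bases among those 17 and 486.5 bases among the 50, and 13 of the 17 against 12 of the 50 ran more than 50 bases past the stem-loop. Reads from near-identical copies are a further limit, because the median share of 50-base stretches that also occur in another gene's transcript was 19.6% in the 17 and 65.3% in the 50. The handling of reads that match several genes is not stated. Levels of single genes with a high share, such as Hist1h2bq at 97.3% and Hist2h3c2 at 63.5%, are therefore uncertain. Hist1h4h stood at 45.8%, Hist3h2a at 31.5%, Hist1h2bc at 30.6% and Hist1h4i at 28.9%. Lower shares were those of Hist1h1c at 8.54%, Hist4h4 at 8.52% and Hist2h4 at 1.01%.

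The genes below the filter were as follows. Among H1 genes these were Hist1h1t, Hist1h1a and Hist1h1b, with 21 to 35 counts over all 13 libraries. Among H2A genes, Hist1h2ae (79 counts), Hist1h2ab, Hist2h2ac, Hist1h2ao and Hist1h2af had more than 10 counts, and Hist1h2ad, Hist1h2ai, Hist1h2ah, Hist1h2ak, Hist2h2ab and Hist1h2ag had 1 to 9. Among H2B genes, Hist1h2bh (47 counts), Hist1h2bf, Hist1h2bb, Hist1h2bk, Hist1h2bj and Hist3h2ba had more than 10, and Hist1h2br, Hist1h2bm, Hist1h2bn, Hist1h2bl and Hist1h2bp had 1 to 7. The H3 genes below the filter were Hist1h3i (41 counts), Hist1h3d, Hist1h3e, Hist1h3a, Hist1h3c, Hist1h3b and Hist1h3h, with Hist1h3g at 10 and Hist1h3f at 9. The H4 genes were Hist1h4k (64 counts), Hist1h4m, Hist1h4j, Hist1h4n, Hist1h4a, Hist1h4f and Hist1h4b, the last with 5. No count was recorded in any library for 9 genes: Hist1h2aa, Hist1h2an, Hist1h2ap, Hist2h2aa1, Hist2h2aa2, Hist1h2ba, Hist2h2bb, Hist2h3b and Hist2h3c1. A count of 0 over 13 libraries allows up to 3 counts, or 0.0131 CPM, by counting error alone. Some of these genes, such as Hist2h3b and Hist2h2bb, share 100% of their 50-base stretches with other genes. For them this floor is no limit on the level if shared reads were left out of the counts. Together the 50 genes held 1.71% of all histone counts.

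Hist1h2bc, an H2B gene at chr13:23684199-23692908, and Hist1h1c, the gene of linker histone H1.2 at chr13:23738808-23740367, held 91.2% of the counts of all 67 genes. Per length, Hist1h2bc stood at 119 ± 28.7 FPKM in saline livers and Hist1h1c at 45.2 ± 7.80 FPKM. Hist1h4h followed at 2.79 ± 0.508 FPKM and Hist1h4i at 1.73 ± 0.437 FPKM. In saline livers Hist4h4 was the lowest of the 17, at 0.0221 ± 0.0192 FPKM.

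The summed level of the 67 genes mostly reflects these 2. It was 217 ± 31.8 CPM in saline and 236 ± 21.9 CPM in dmPGE2 livers, and 204 ± 40.3 CPM with GalN/LPS alone and 214 ± 28.2 CPM after pretreatment, groups that overlap. With library totals in place of TMM factors the sums were 255 in saline and 157 in pretreated livers, so the order of the groups depends on the scaling.

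The classes differed in pattern. H1 genes summed to 70.2 ± 11.5 CPM in saline and 90.2 ± 7.73 in dmPGE2 livers, but to 20.0 ± 2.26 in GalN/LPS and 21.2 ± 4.00 in pretreated livers, and nearly all of this was Hist1h1c. The other 5 H1 genes summed to 0.834 ± 0.213 CPM in saline and 1.58 ± 0.654 with dmPGE2 alone, and to 2.64 ± 1.05 with GalN/LPS alone and 1.36 ± 0.952 after pretreatment. H4 genes summed to 3.71 ± 0.406 CPM in saline and 4.98 ± 0.974 in dmPGE2 livers, but to 16.1 ± 7.57 with GalN/LPS alone and 7.39 ± 3.25 after pretreatment. H2B genes, mostly Hist1h2bc, ranged from 120 to 177 CPM in saline and from 137 to 202 CPM in GalN/LPS livers. With library totals the H4 sums were 4.36, 6.10, 16.5 and 5.39 in that order, so pretreated and dmPGE2 livers change places. H2A genes summed to at most 3.12 CPM and H3 genes to at most 4.53 CPM in any library. No test was made of these sums.

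**Figure D2:**
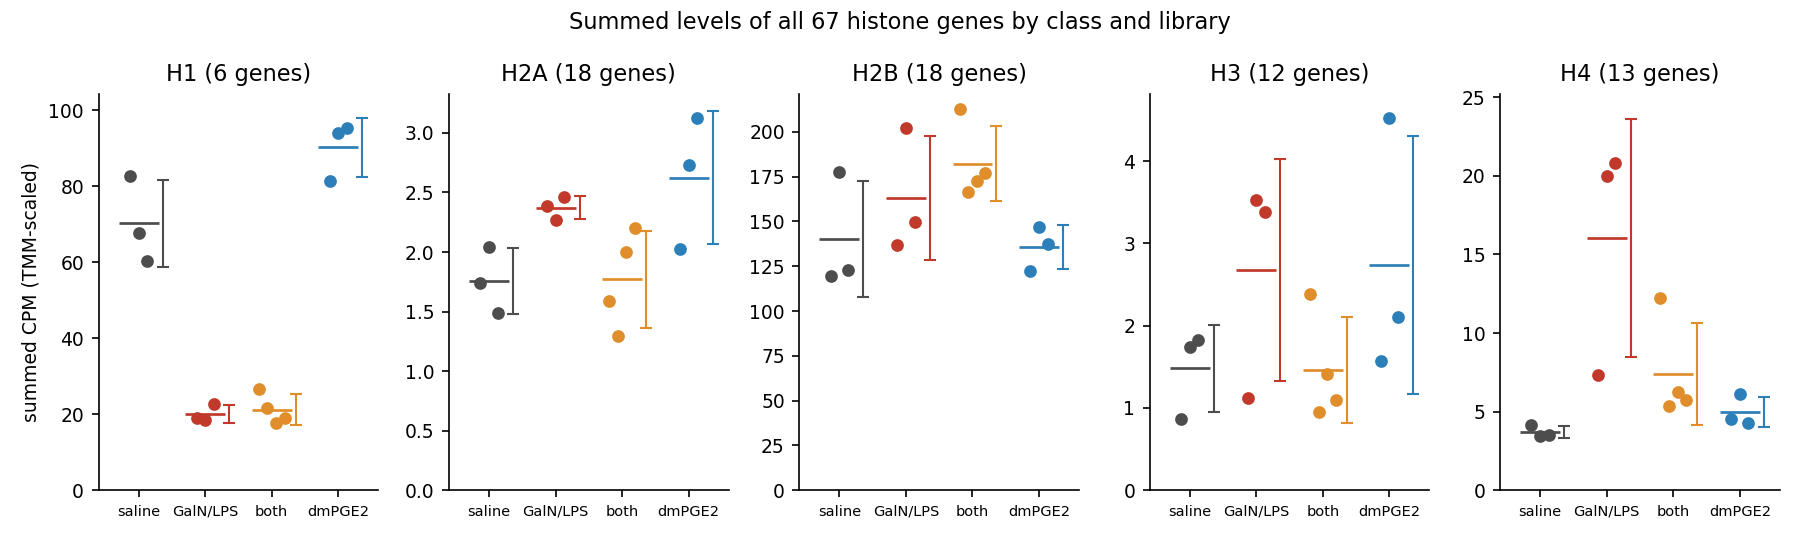
Summed level of all 67 histone genes by class, in TMM-scaled CPM on linear axes from 0, for 13 libraries; "both" is dmPGE2 followed by GalN/LPS. Points are libraries, lines are group means and bars are ± SD; H1 lies at 17.6 to 26.7 CPM in the 7 libraries given GalN/LPS and at 60.3 to 95.2 CPM in the other 6, and H4 is highest in GalN/LPS libraries 2 and 3.

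The first comparison asked how GalN/LPS changed these genes against saline. Of the 17 genes tested, 6 rose and 1 fell, where 27.4% of all genes tested rose and 25.6% fell. The 6 that rose were the 6 H4 genes with enough counts, and the one that fell was Hist1h1c. Over the 17 genes the median log2 fold change was 1.19, against 0.025 over all genes tested. For Hist4h4, Hist1h4c, Hist1h4d and Hist2h4 no saline library reached the filter level, so they were tested mainly because they were high with GalN/LPS and had to differ, and the count is no support by itself. Regardless of the filter, the mean was higher with GalN/LPS in 45 of the 53 members with a count in either group (84.9%) and in 13 of 13 H4 genes, where 57.9% of all genes of the table with a count were higher. With dmPGE2 alone against saline, the mean was higher in 40 of 54 members (74.1%) and 9 of 13 H4 genes. Among all genes with a count it was higher in 50.8%. Members with few counts share much of their sequence, so these counts are descriptions.

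Hist1h1c was the only member called lower. It stood at 82.1, 66.7 and 59.3 CPM in saline and 79.96, 91.7 and 94.1 in dmPGE2 livers, against 17.5, 15.3 and 19.4 with GalN/LPS alone and 24.0, 20.2, 16.7 and 18.4 after pretreatment. All 7 libraries given GalN/LPS lay below all 6 others, with no overlap. Against saline it fell by 1.99 ± 0.16 with GalN/LPS (edgeR adjusted p = 4.99e-08) and by 1.81 ± 0.15 in pretreated livers (adjusted p = 6.01e-08). Leaving out any 1 of the 13 libraries gave values from -2.19 to -1.87 for GalN/LPS. Pretreated and GalN/LPS libraries overlapped (log2 0.19 ± 0.15, adjusted p = 0.299), and with library totals that value was -0.33 (adjusted p = 0.134).

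H1f0, the gene of the replacement linker histone H1.0, which is made outside S phase and from polyadenylated RNA, also fell. It went from 109 ± 9.88 CPM in saline to 28.1 ± 3.88 with GalN/LPS (log2 -1.95 ± 0.15, edgeR adjusted p = 3.55e-08) and 25.3 ± 3.74 in pretreated livers (log2 -2.10 ± 0.14, adjusted p = 8.54e-09). The other H1 genes that could be tested did not pass. Hist1h1d stood at 0.451 ± 0.163 CPM in saline and 1.14 ± 0.242 with GalN/LPS (log2 1.32 ± 0.55, edgeR adjusted p = 0.0545), and its groups did not overlap, as in 59.7% of all genes tested. Hist1h1e stood at 0.210 ± 0.149 and 0.729 ± 0.483 CPM (log2 1.78 ± 0.80, adjusted p = 0.0732). Hist1h1e overlaps Hist1h2be on its strand, so reads of these 2 genes may be shared.

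Hist1h2bc gave 116, 172 and 118 CPM in saline and 117, 138 and 129 in dmPGE2 livers, and 133, 196 and 143 with GalN/LPS alone and 205, 162, 168 and 173 after pretreatment. These groups overlap except that the lowest pretreated library exceeded all dmPGE2 libraries. It passed in no comparison (log2 0.22 ± 0.18 with GalN/LPS, edgeR adjusted p = 0.32, and 0.39 ± 0.17 in pretreated against saline, adjusted p = 0.0544). Without saline replicate 2, its highest saline library, the latter was 0.60 (adjusted p = 0.00712), without GalN/LPS replicate 2 it was 0.39 (adjusted p = 0.0302), and with library totals it turned to -0.30 (adjusted p = 0.0863).

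The ratio of Hist1h2bc to Hist1h1c within a library, on the CPM scale, ranged from 1.41 to 2.58 in saline and 1.37 to 1.51 in dmPGE2 livers, and from 7.40 to 12.8 with GalN/LPS alone and 7.99 to 10.1 after pretreatment. Being taken within a library, the ratio does not depend on the scaling factors, and it shows that the 2 genes changed unequally. Of the other H2B genes tested, Hist1h2be stood at 0.413, 0.897 and 0.769 CPM in saline and 1.05, 1.51 and 0.970 in dmPGE2 livers, and at 0.478, 2.21 and 2.87 with GalN/LPS alone and 2.14, 0.478, 0.584 and 1.02 after pretreatment (log2 1.41 ± 0.59 with GalN/LPS, edgeR adjusted p = 0.0562). Its GalN/LPS library 1 lay within the saline range. Hist1h2bg and Hist1h2bq passed in none of the comparisons.

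**Figure D3:**
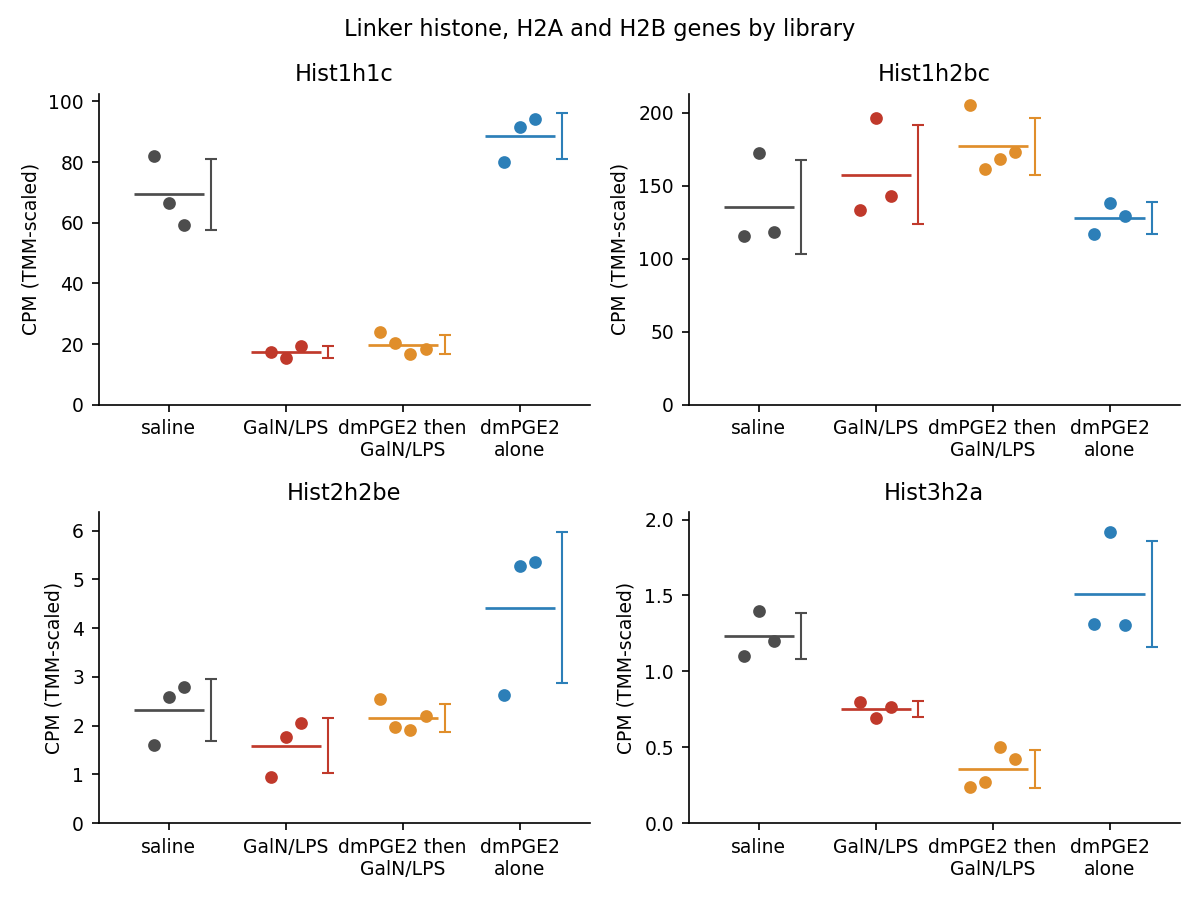
Hist1h1c, Hist1h2bc, Hist2h2be and Hist3h2a in 13 libraries, in TMM-scaled CPM on linear axes from 0. Points are libraries, lines group means and bars ± SD; Hist1h1c is at 15.3 to 24.0 CPM in the livers given GalN/LPS and at 59.3 to 94.1 CPM in the others, while Hist1h2bc overlaps between saline and GalN/LPS.

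Among core histones, the 6 H4 genes that could be tested, of 13, rose with GalN/LPS, 4 of them with the limit from the filter given above. Hist4h4, the single gene of its cluster at chr6:136801553-136804415, had 2, 0 and 2 counts in saline and 0, 1 and 0 in dmPGE2 livers, and 23, 89 and 120 with GalN/LPS alone and 19, 2, 0 and 0 after pretreatment. Outside the GalN/LPS group each library held 0 to 2 counts, apart from pretreated library 1. Per TMM-scaled library size, the ratio of the 232 GalN/LPS counts to the 4 saline counts was 67.1 (exact 95% counting interval 25.8 to 248, which covers counting error only), and the fitted log2 change was 5.94 ± 1.12 (edgeR adjusted p = 0.000317).

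Of the other H4 genes with few counts, Hist2h4 had 4, 0 and 5 counts in saline and 10, 25 and 31 with GalN/LPS (log2 3.04 ± 0.78, edgeR adjusted p = 0.00387). Hist1h4d had 1, 2 and 4 counts in saline and 14, 16 and 34 with GalN/LPS (log2 3.31 ± 0.76, adjusted p = 0.00174), again without overlap. Hist1h4c had 6, 5 and 2 counts in saline and 3, 40 and 56 with GalN/LPS, so its groups overlapped through GalN/LPS library 1 (log2 3.11 ± 0.85, adjusted p = 0.00582).

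Hist1h4i and Hist1h4h were the H4 genes already measured well in saline. Hist1h4i stood at 1.19, 0.947 and 1.59 CPM in saline and 1.49, 3.34 and 3.69 with GalN/LPS (log2 1.19 ± 0.41, edgeR adjusted p = 0.0222), and the groups overlapped. Hist1h4h stood at 1.51, 1.295 and 1.06 CPM in saline and 1.80, 2.58 and 2.71 with GalN/LPS (log2 0.87 ± 0.28, adjusted p = 0.0154), without overlap. The call of Hist1h4i was lost without saline replicate 1 or 2 or GalN/LPS replicate 2 or 3, with log2 values of 0.83 to 1.14. The call of Hist1h4h was lost without saline replicate 3 (0.74), without GalN/LPS replicate 3 (0.64), with library totals (0.70, adjusted p = 0.0657) and without the filter on low counts (0.74, adjusted p = 0.113).

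The GalN/LPS libraries differed among themselves. Library 1 held 138 H4 counts, against 317 and 407 in libraries 2 and 3, and 69 to 91 in saline libraries. Without library 1, 11 of the 19 histone genes then tested rose with GalN/LPS, and 26.1% of all genes did. Those 11 were the 6 H4 genes above, Hist1h4k, Hist1h2be (log2 1.87, edgeR adjusted p = 0.00777), Hist1h2ac, Hist1h1e and Hist1h1t. Hist1h4k and Hist1h1t did not pass the filter with all 13 libraries. The limit from the filter given above holds here too, and the library left out had the lowest H4 counts of its group. The count of 11 is therefore no support by itself.

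**Figure D4:**
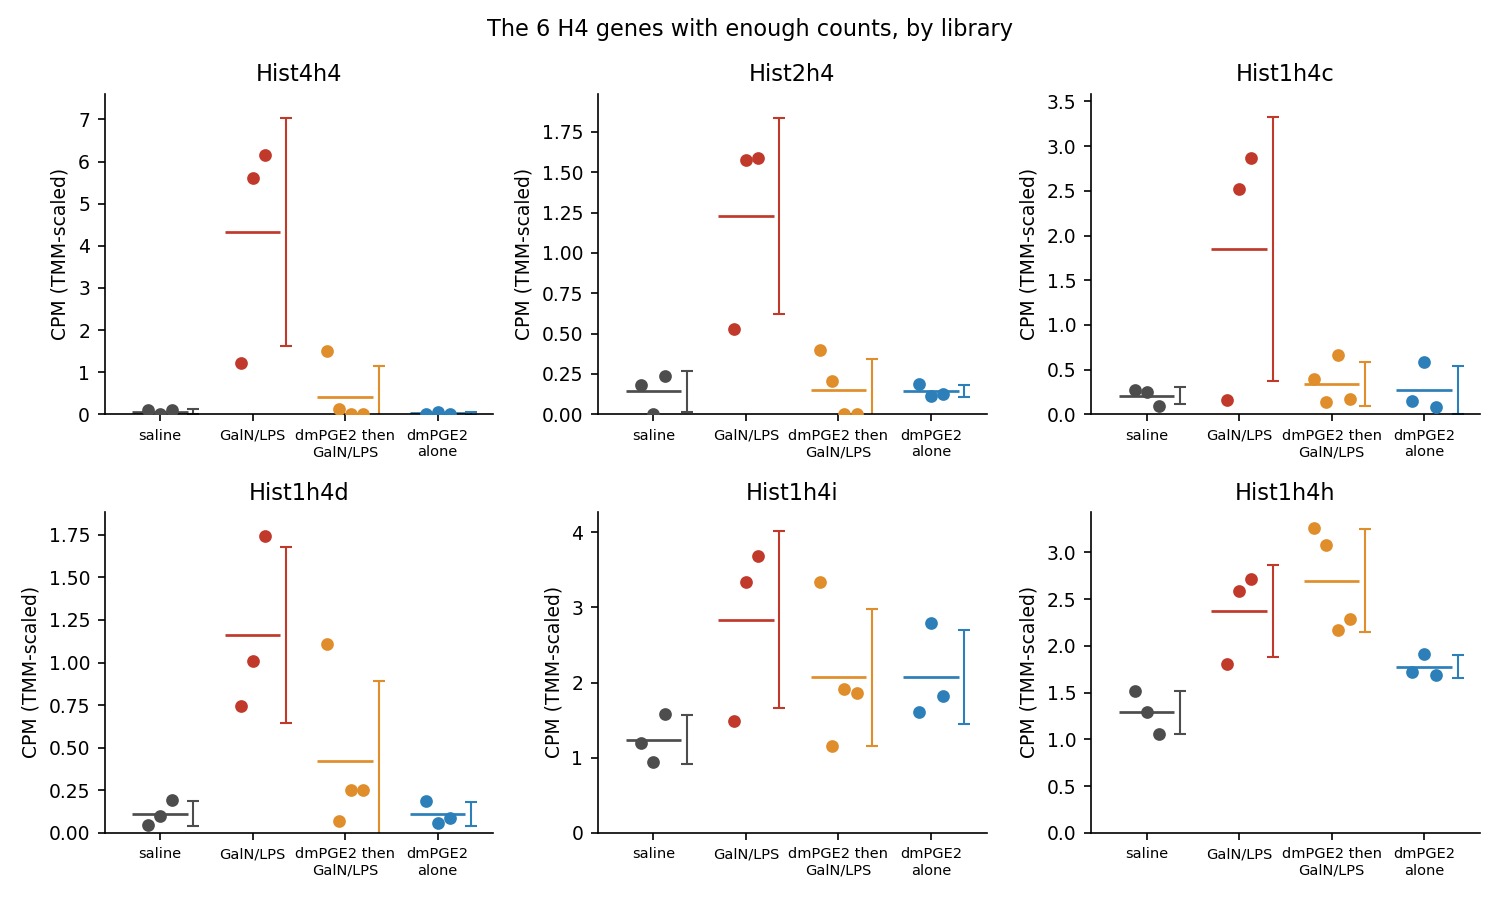
The 6 H4 genes with enough counts in 13 libraries, in TMM-scaled CPM on linear axes from 0; each panel has its own scale. Points are libraries, lines group means and bars ± SD, drawn down to 0 at most; GalN/LPS libraries 2 and 3 lie above library 1 in each panel, and pretreated library 1 is above the other pretreated libraries in 5 of the 6 panels.

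Promoter sequences of 5 of the 6 H4 genes called with GalN/LPS share a short element. Hist2h4 had no matched promoter. RefSeq promoters (GRCm38.p6, 250 bases before to 50 after the start) were matched for 61 members. The letters GGTCCG, known from H4 promoters, were found on either strand in 11 of 12 H4 promoters and in 8.25% of all 32851 promoters of that length. In the 30-base windows below, on the strand of the gene and 5′ to 3′, capitals mark these letters. For Hist1h4h the last of them lies at the annotated start rather than before it.
Hist4h4, chr6:136804446-136804475, minus strand: tgttttcaatcaGGTCCGctcccaggaaat
Hist1h4c, chr13:23698487-23698516, minus strand: agttttcaaccaGGTCCGcagaaggcctat
Hist1h4d, chr13:23581509-23581538, plus strand: ggttttcaaacaGGTCCGcattggtattat
Hist1h4i, chr13:22041391-22041420, minus strand: tgttttcactccGGTCCGcaagttccctat
Hist1h4h, chr13:23531027-23531056, plus strand: agtcttcaatcaGGTCCGaaaacactgcat

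The same motif was in 1 of 16 H2B and 1 of 10 H3 promoters and in 0 of 6 H1 and 0 of 17 H2A promoters. The CCAAT box was in 6 of 6 H1, 17 of 17 H2A, 16 of 16 H2B and 10 of 10 H3 promoters and in 3 of 12 H4 promoters, against 37.4% of all promoters. AAACACA, the letters of the H1 box, was in 5 of 6 H1 promoters (7.18% of all), and the octamer ATTTGCAT in 7 of 17 H2A and 7 of 16 H2B promoters (1.74% of all). TATAAA was in 35 of the 61 (13.6% of all). Both strands were searched for each motif, and a match is a description of the letters only. The 250 bases before the start of Hist1h1c, at chr13:23738557-23738806 on the plus strand, hold the H1 box and the CCAAT box, marked by capitals.
Hist1h1c: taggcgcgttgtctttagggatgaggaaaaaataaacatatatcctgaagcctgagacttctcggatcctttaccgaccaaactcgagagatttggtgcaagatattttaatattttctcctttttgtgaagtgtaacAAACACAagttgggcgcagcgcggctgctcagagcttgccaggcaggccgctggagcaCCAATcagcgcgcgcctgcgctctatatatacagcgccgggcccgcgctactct

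The second comparison asked what dmPGE2 given before GalN/LPS did to these genes against GalN/LPS alone. Of the 17 genes, 4 fell, where 30.1% of all genes tested fell. By edgeR 0 rose, where 24.4% of all genes rose. At an unadjusted p under 0.05 also 0 rose, where 27% of all genes did. With DESeq2 0 of the 30 members given an adjusted p rose, where 18.6% of all genes did. With library totals 8 of the 17 fell, near the 47.6% of all genes tested that then fell, and the share of higher among all calls went from 44.7% to 8.3%. The 4 were Hist4h4, Hist2h4, Hist1h4c and Hist3h2a. The median log2 fold change was -0.60 over the 17 and -0.10 over all genes tested. Hist4h4, Hist2h4 and Hist1h4c reached the filter mainly through the GalN/LPS group, so the count is again no support by itself. This comparison and the first share the 3 GalN/LPS libraries.

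Hist4h4 fell by 3.37 ± 0.83 on the log2 scale (edgeR adjusted p = 0.00327), with 21 counts in 4 pretreated libraries, 19 of them in library 1, against 232 in 3 GalN/LPS libraries. With DESeq2 the change was -3.42 (adjusted p = 0.0755), and without pretreated library 1 it was -6.21. Leaving out any other single library gave -3.81 to -2.98. Hist2h4 had 5, 3, 0 and 0 counts in pretreated livers and fell by 2.93 ± 0.77 (edgeR adjusted p = 0.00499), without overlap, as in 50.4% of all genes tested. Hist1h4c had 5, 2, 8 and 2 counts and fell by 2.43 ± 0.78 (adjusted p = 0.0157), a call lost without GalN/LPS replicate 2 (adjusted p = 0.0509) or 3 (adjusted p = 0.0853).

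The other 3 H4 genes did not pass. Hist1h4h stood at 3.25, 3.07, 2.17 and 2.28 CPM in pretreated livers, which overlapped GalN/LPS (log2 0.19 ± 0.26, edgeR adjusted p = 0.54). Hist1h4i stood at 3.33, 1.16, 1.92 and 1.86 CPM (log2 -0.46 ± 0.38, adjusted p = 0.312). Hist1h4d, with 14, 1, 3 and 3 counts, gave -1.48 ± 0.62 (adjusted p = 0.0559).

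Hist3h2a, an H2A gene at chr11:58954685-58956830 that overlaps Trim17 on its strand, was lowest in pretreated livers. It stood at 1.10, 1.40 and 1.20 CPM in saline and 1.31, 1.92 and 1.31 in dmPGE2 livers, and at 0.796, 0.693 and 0.768 with GalN/LPS alone and 0.238, 0.273, 0.5004 and 0.423 after pretreatment. The pretreated libraries, with 3 to 6 counts each, overlapped no other group. It fell by 1.07 ± 0.39 against GalN/LPS (edgeR adjusted p = 0.0285) and by 1.78 ± 0.37 against saline (adjusted p = 0.000522). The first of these calls was lost without GalN/LPS replicate 1 or 3 or pretreated replicate 1 or 2 (adjusted p of 0.0662 to 0.0746), without the filter (adjusted p = 0.111) and with DESeq2 (adjusted p = 0.0525). Hist3h2a and Trim17 may share reads, with 235 and 64 counts in all.

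**Figure D5:**
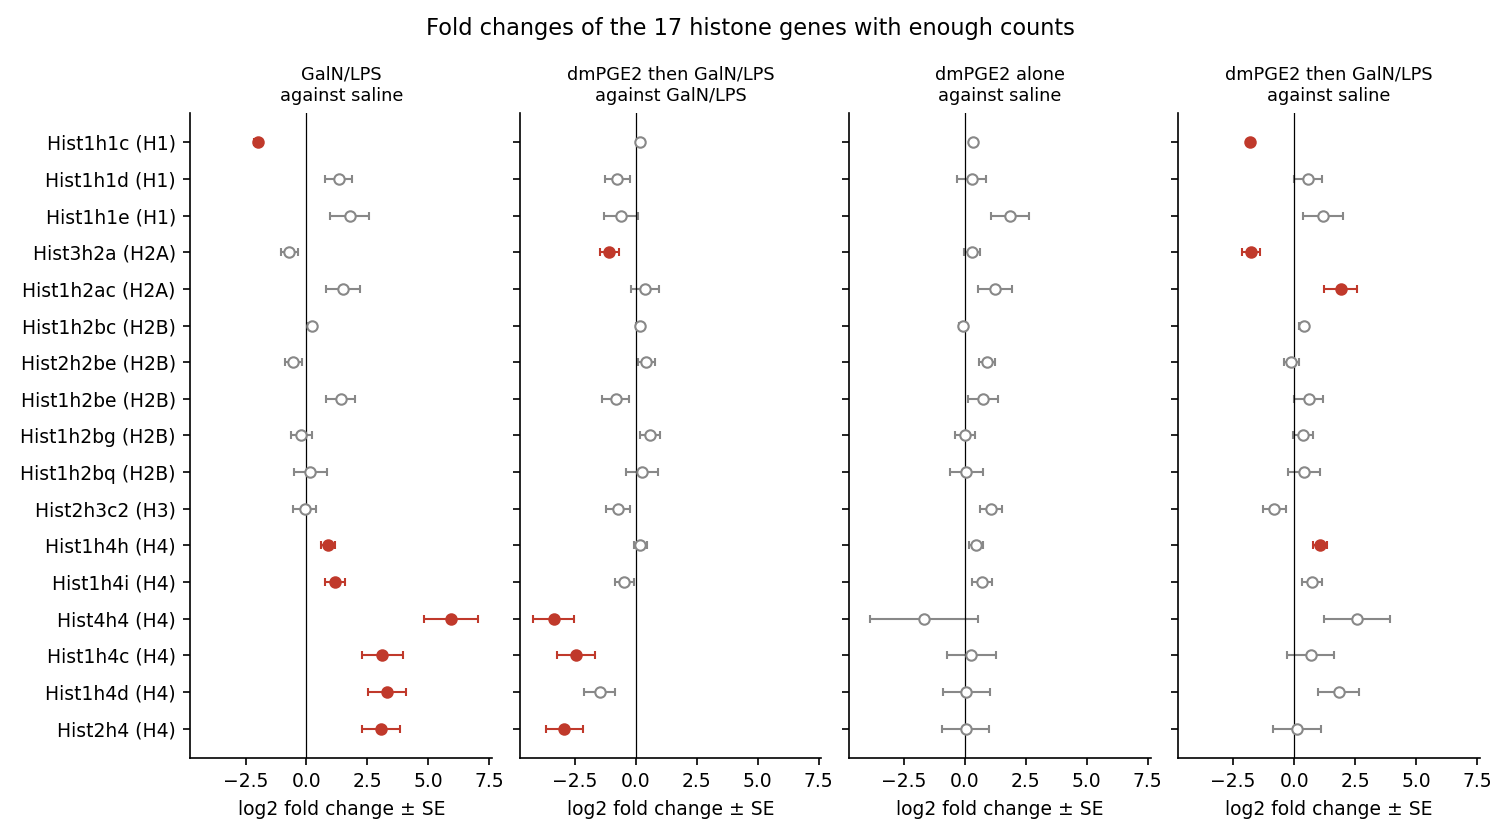
Log2 fold changes ± SE of the 17 histone genes with enough counts in 4 comparisons, on a common linear axis, with the class of each gene in brackets. Filled red points have an edgeR adjusted p under 0.05: 6 H4 genes higher and Hist1h1c lower with GalN/LPS, 4 genes lower with pretreatment, none with dmPGE2 alone, and 2 higher and 2 lower in pretreated against saline livers.

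The third comparison, pretreated against saline, left 2 genes higher and 2 lower of 17, where 34.8% and 30.2% of all genes tested were (65% in either direction). This comparison shares its libraries with those above. Hist1h1c and Hist3h2a were lower, with the values above. Hist1h4h was higher by 1.06 ± 0.27 (edgeR adjusted p = 0.00252), with all 4 pretreated libraries above all 3 saline ones. Hist1h2ac, an H2A gene, had 4, 4 and 2 counts in saline and 10, 4, 5 and 12 in pretreated livers (log2 1.90 ± 0.67, edgeR adjusted p = 0.02). On TMM-scaled CPM the groups did not overlap for these 4 genes, as in 61.8% of all genes tested, although the counts of Hist1h2ac tied at 4. With library totals, under which the share of higher among all calls went from 53.5% to 19.8%, neither rise passed (0.39, adjusted p = 0.254, for Hist1h4h and 1.22, adjusted p = 0.114, for Hist1h2ac), and Hist1h2ac was also lost without saline replicate 3 (1.66) or pretreated replicate 4 (1.58).

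With dmPGE2 alone, edgeR called 0 of the 17 genes and 0% of all genes tested against saline. At an unadjusted p under 0.05, 4 of the 17 and 7.63% of all genes tested were higher, and DESeq2 called 0 of the 5 members to which it gave an adjusted p. The 4 were Hist1h1c (log2 0.35 ± 0.15, edgeR adjusted p = 0.31), Hist2h2be (0.92 ± 0.33, adjusted p = 0.221), Hist2h3c2 (1.07 ± 0.44, adjusted p = 0.296) and Hist1h1e (1.85 ± 0.79, adjusted p = 0.305). Hist2h2be, an H2B gene, stood at 1.61, 2.59 and 2.79 CPM in saline and 2.62, 5.28 and 5.36 in dmPGE2 livers, which overlap. It stood at 0.955, 1.76 and 2.05 CPM in GalN/LPS and 2.54, 1.98, 1.92 and 2.20 in pretreated livers. For 5 of the 17 genes these groups did not overlap, as in 26.3% of all genes tested. Hist1h4h stood at 1.72, 1.92 and 1.69 CPM with dmPGE2 alone, above each saline library, with a log2 change of 0.46 ± 0.28 (edgeR adjusted p = 0.486).

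The interaction asked whether dmPGE2 acted differently in injured and uninjured livers. By edgeR 2 of the 17 genes were lower and 0 higher, where 19.6% and 15.4% of all genes tested were. At an unadjusted p under 0.05, 4 were lower and 0 higher, where 25.4% and 20.9% of all genes were. With DESeq2 1 of 18 members was lower and 0 higher, where 21.4% and 15% of all genes were. With library totals 7 of the 17 were lower, near the 36.5% of all genes tested that then were, and the share of higher among all calls went from 44% to 3.38%. Hist2h3c2, an H3 gene, stood at 1.35, 3.95 and 1.60 CPM with dmPGE2 alone against 0.596, 1.40 and 1.25 in saline, and at 0.714, 0.410, 0.751 and 0.592 in pretreated against 0.637, 1.20 and 1.23 in GalN/LPS livers. Its interaction was -1.80 ± 0.66 (edgeR adjusted p = 0.0456) and -1.17 (adjusted p = 0.154) without dmPGE2 replicate 2, its highest library. Hist3h2a gave -1.36 ± 0.50 (adjusted p = 0.0474). Leaving out each of the 13 libraries in turn, the call held for Hist2h3c2 in 4 and for Hist3h2a in 1. For Hist1h1c the interaction was -0.16 ± 0.21 (adjusted p = 0.564), and -0.75 (adjusted p = 0.0309) with library totals.

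Replacement histones can also be made outside S phase. With GalN/LPS 6 of the 11 tested rose and 2 fell (27.4% and 25.6% of all genes), with a median log2 change of 0.34 against 0.025 over all genes. H2afz, the gene of H2A.Z, went from 36.9 ± 1.70 CPM in saline to 90.8 ± 6.86 with GalN/LPS (log2 1.297 ± 0.15, edgeR adjusted p = 3.32e-06) and 88.6 ± 19.2 in pretreated livers. The H3.3 genes rose too: H3f3a by 0.72 ± 0.14 (edgeR adjusted p = 0.000416) and H3f3b by 0.34 ± 0.13 (adjusted p = 0.0389) with GalN/LPS. H2afx, the gene of the damage-marking H2A.X, stood at 13.1 ± 3.69 CPM in saline, 9.12 ± 0.399 with GalN/LPS and 5.50 ± 1.72 in pretreated livers, a fall of 0.72 ± 0.23 from GalN/LPS (edgeR adjusted p = 0.0147). Against GalN/LPS, pretreated livers had 4 of these 11 genes higher and 2 lower, where 24.4% and 30.1% of all genes were.

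Of 19 genes that transcribe, process or degrade histone messages, 8 fell with GalN/LPS (25.6% of all genes), with a median log2 change of -0.32, among them Coil (log2 -1.37 ± 0.24), Lsm10 (-1.27 ± 0.21) and the helicase gene Upf1 (-1.19 ± 0.13). Slbp stood at 9.57 ± 0.991 CPM in saline and 8.5 ± 2.03 with GalN/LPS (edgeR adjusted p = 0.463), and at 4.10 ± 0.382 in pretreated livers, a fall of 1.06 ± 0.18 from GalN/LPS (adjusted p = 0.000283). Npat went from 2.93 ± 1.12 with GalN/LPS to 1.19 ± 0.269 CPM in pretreated livers (log2 -1.30 ± 0.30, adjusted p = 0.00205). In pretreated against GalN/LPS livers 9 of the 19 fell and 1, Cpsf3, rose, where 30.1% and 24.4% of all genes did. Slbp and Npat also had lower interactions (-0.82 ± 0.26, adjusted p = 0.0232, and -1.57 ± 0.41, adjusted p = 0.00987). Among 20 histone chaperone genes 2 rose and 7 fell with GalN/LPS, where 27.4% and 25.6% of all genes did. Nasp, which carries H3 and H4 and H1, fell by 1.34 ± 0.17 (adjusted p = 8.93e-06) and by a further 1.19 ± 0.18 with pretreatment (adjusted p = 0.000114).

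Of 27 DNA replication and S phase genes tested, 1 rose (E2f2) and 8 fell with GalN/LPS, the latter near the 25.6% of all genes that fell, with a median log2 change of -0.35, and among those that fell were Ccne1, the gene of the G1 to S cyclin E1 (-2.35 ± 0.37), and the replication genes Mcm10 (-1.89 ± 0.36) and Gins1 (-1.51 ± 0.28). In the G2 and mitosis list 3 of 16 rose, where 27.4% of all genes did, with a median log2 change of 0.68. The 3 were Mki67 from 3.16 ± 0.655 to 11.4 ± 4.98 CPM (edgeR adjusted p = 0.00069), Top2a from 2.05 ± 0.525 to 8.06 ± 4.15 (adjusted p = 0.00138), and Ccna2. In pretreated against GalN/LPS livers 5 of the 27 S phase genes were higher and 2 lower (24.4% and 30.1% of all genes), with Tyms (0.92 ± 0.19) and Gins1 (1.13 ± 0.28) among the higher. Pretreated livers stood at 8.35 ± 2.57 CPM for Mki67 and 4.69 ± 2.37 for Top2a. In GalN/LPS library 1, where H4 counts were lowest of its group, Mki67 had 256 counts, against 90 and 290 in libraries 2 and 3. TMM factors of these libraries were 1.14, 0.904 and 1.10. Mki67 is a single gene of its list, and its relation to the H4 counts was not tested.

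Most markers of other cells that could be tested were also higher with GalN/LPS, where 27.4% of all genes tested were. All 9 neutrophil markers tested rose with GalN/LPS, and the summed level of the 10 listed was 5.08 to 18.5 CPM in saline, 675 to 899 with GalN/LPS, 264 to 420 after pretreatment and 5.82 to 9.63 with dmPGE2 alone, where Ly6g was at 0 counts. The sums of 10 Kupffer cell and macrophage markers were 183 to 224, 756 to 1143, 344 to 552 and 222 to 294 CPM in that order, and those of 10 sinusoidal endothelial markers were 87.8 to 104, 629 to 811, 189 to 396 and 96.0 to 128 CPM. With GalN/LPS 9 of 10 Kupffer cell, 10 of 10 endothelial, 9 of 10 stellate cell, 7 of 9 T and NK cell, 5 of 7 B cell, 5 of 6 erythroid and 5 of 5 cholangiocyte markers rose (27.4% of all genes). Against GalN/LPS, pretreated livers had 8 of the 9 neutrophil, 10 of 10 Kupffer cell, 10 of 10 endothelial, 9 of 10 stellate cell, 6 of 9 T and NK cell, 7 of 7 B cell and 3 of 5 cholangiocyte markers lower, and of 6 erythroid markers 3 were lower and 1 higher. Of all genes tested in this comparison 30.1% were lower and 24.4% higher. The part of these cells in the histone values was not tested. Hepatocyte markers summed to 90693 to 105857 CPM in saline and 93307 to 133650 with GalN/LPS, where 2 of the 10 fell (25.6% of all genes). In pretreated livers they summed to 143052 to 222638 CPM, and 10 of 10 were higher than with GalN/LPS alone, where 24.4% of all genes tested were. With library totals 4.31% of all genes tested were higher in this comparison, and these markers are not given with totals.

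The genes whose level was most like that of the 67 summed, by Pearson correlation over 13 libraries, were 2610044O15Rik8 (0.855), Gm15638 (0.820) and Gm19605 (0.790). For Hist1h1c alone, a choice made after its values were seen, they were Myo5b (0.993), Tec (0.988) and Engase (0.987). Myo5b stood at 17.1 ± 1.61 CPM in saline and 22.8 ± 1.52 in dmPGE2 livers, and at 4.64 ± 0.583 with GalN/LPS alone and 4.77 ± 1.00 after pretreatment. These values share libraries and scaling factors and are descriptions.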

How the data were processed

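The data were 13 RNA-seq libraries of mouse liver, in 4 groups of 3, 3, 4 and 3 taken from the labels. The columns named ALF were taken as GalN/LPS. The series text names acetaminophen-induced injury, and the labels, which give GalN/LPS, were followed. The authors deposited a raw count and an FPKM value per gene and library. Reads were aligned with HISAT2 to GRCm38 (mm10), per the submitters' processing notes; the sources used here do not name the read counter, annotation or strand setting. Libraries were made with the NEBNext Ultra RNA kit, per the labels.

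Counts were fitted with edgeR 4.0.16 in R 4.3.3 (quasi-likelihood F test, two-sided, TMM, filterByExpr by group with a minimum count of 10, 1 fit over 13 libraries by group), with Benjamini-Hochberg adjustment over 14280 genes at 0.05. The fit was tested on simulated data. FPKM from the authors served for levels between genes and, with limma 3.58.1 on log2(FPKM + 0.1) or log2(FPKM + 1), as an alternative. The denominators behind the FPKM values were 0.706 to 1.28 times the library totals and close to the TMM factors, so they are no independent check of the scaling. Other alternatives were DESeq2 1.42.0, RLE factors, library totals, no filter, a mean CPM filter of 0.5, only the groups compared, a replicate block and leaving out each library. Intervals and floors cover counting error only.

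The members and the gene lists were chosen with earlier results of these data known. Values per library are given for the 8 members with the highest mean CPM and for members past the test, with up to 6 per comparison and direction. Of other lists up to 4 genes per comparison with the smallest adjusted p are named, and always H2afz, H2afx, H3f3a, H3f3b, H1f0, Slbp, Npat, Mki67 and Top2a. Hist1h1d, Hist1h1e, Hist1h2bg and Hist1h2bq, Ccna2 and Trim17 are named beside them.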

Additional observations from a re-analysis of the deposited data

Results flagged for a closer look

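Pretreated library 1 lay apart from the other 3 pretreated libraries in 4 of the 24 sets of values examined, at a ratio of its gap to the group's range above the critical value for 4 samples; chance flags about 1 in 20 such groups. Hist4h4 stood there at 1.51 CPM (ratio 0.909), the H4 genes summed to 12.2 CPM (0.866), the members without Hist1h2bc and Hist1h1c to 26.8 CPM (0.884) and all members to 256 CPM (0.846). These 4 values share genes. Pretreated library 1 had a TMM factor of 0.717 and the lowest Mki67 of its group (5.08 CPM). The relation of either to the histone values was not tested.

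For 2 of the 17 genes tested, the change with dmPGE2 differed between injured and uninjured livers by the interaction test of edgeR. The difference was -1.80 for Hist2h3c2 (adjusted p = 0.0456) and -1.36 for Hist3h2a (adjusted p = 0.0474), where 35% of all genes tested were called. Leaving out each of the 13 libraries in turn, the call held for Hist2h3c2 in 4 and for Hist3h2a in 1. Hist2h3c2 also shares 63.5% of its 50-base stretches with other genes.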

How the results depend on the processing

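No value changed direction while called. Histone genes higher with GalN/LPS numbered 13 of 58 without the filter on low counts (14.2% of all genes) and 12 or 15 of 40 with limma on log2(FPKM + 0.1) or log2(FPKM + 1) (23.9% and 24.2%), and those lower 2 of 17 with library totals (30%) and 2 of 40 with log2(FPKM + 1) (23.1%). Lower in pretreated against GalN/LPS were 8 of 17 with library totals (47.6%), 9 of 40 with log2(FPKM + 1) (27.8%) and 2 of 14 with only the groups compared (28.5%). In pretreated against saline, 0 of 17 were higher with totals (11.8%), 1 of 13 with the mean CPM filter (35.7%), 6 of 40 with log2(FPKM + 0.1) (28.1%) and 1 of 10 with only the groups compared (29.2%), and 4 of 17 were lower with totals (47.6%). Lower in the interaction were 7 of 17 with totals (36.5%), 5 of 58 without the filter (11.5%), 1 of 18 with DESeq2 (21.4%) and 4 of 40 with log2(FPKM + 0.1) (17.3%). Leaving out 1 library left 17 or 19 members tested. Of these, 4 to 11 were higher with GalN/LPS (11 without GalN/LPS replicate 1), where 21.7% to 27.9% of all genes were. Lower with pretreatment were 2 to 6 (2 without GalN/LPS replicate 3), where 23.9% to 29.8% of all genes were. In pretreated against saline 1 to 3 were higher (1 without pretreated replicate 4), where 29.7% to 34.6% of all genes were. In the interaction 0 to 4 were lower, where 14% to 21% of all genes were. The cause was not tested.

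With library totals all members summed to 255 in saline, 157 in pretreated and 290.3 CPM in dmPGE2 livers, H1 genes to 82.6, 15.6 and 111, and H4 genes to 4.36 in saline and 6.10 in dmPGE2 livers. Over all genes, dmPGE2 against saline gave 0 calls by edgeR, 461 without the filter and 282 with DESeq2. Between same-numbered libraries, 18 correlations of deviations from the group means ran from -0.31 to 0.09. Differently numbered libraries were not compared, so this does not decide whether replicate numbers pair the libraries. With the replicate block 2 of 17 members were lower with pretreatment (26% of all genes), 1 higher in pretreated against saline (32.1%), and 0 lower in the interaction (15.1%). The call of Hist1h4c with GalN/LPS was lost with log2(FPKM + 0.1) (adjusted p = 0.0539). Too few counts left 50 of the 67 members untested.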
